A study of Caenorhabditis elegans with 6 samples.

Results

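The expression of 10 genes of the *C. elegans* intestinal immune response was measured in *nhr-49(nr2041)* mutants and wild-type animals. They are 10 of the 46739 genes listed, and all 10 were among the 13965 genes expressed highly enough to be tested. The 10 genes are C32H11.1 (*irg-6*), F35E12.5 (*irg-5*), F08G5.6 (*irg-4*), T24B8.5 (*sysm-1*), F55G11.8, K08D8.5, C17H12.8, *dod-17*, *dod-22* and *dod-24*. They were chosen by name, as effectors that depend on the p38 kinase PMK-1, and with earlier results of these data known. RNA was taken from whole animals of 2 genotypes, each sequenced as 3 biological replicates: *nhr-49(nr2041)* mutants (strain PMD122) and wild-type animals (strain PMD121). The receptor NHR-49, a transcription factor of the nuclear receptor class, governs genes of fat breakdown and desaturation, and the *nr2041* allele lacks part of its gene. Both strains descend from a cross of N2 to STE68 from which F2 homozygotes were kept, so each genotype is 1 strain and the strain cannot be told apart from the allele. All animals were fed HT115 bacteria carrying the empty RNAi vector at 20°C throughout development, were collected as late L4 larvae, and met no pathogen that the labels name.

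Worms lack specialised immune cells, and the intestinal epithelium answers swallowed microbes by secreting effector proteins. The adaptor TIR-1 acts on a kinase cascade of NSY-1, SEK-1 and the p38 kinase PMK-1, and PMK-1 signals to the transcription factor ATF-7, while the GATA factor ELT-2 is needed for intestinal expression. Most of the 10 genes encode small secreted proteins with a CUB-like domain, a fold of unknown biochemical action in worm immunity, whereas T24B8.5 encodes a ShK-like toxin peptide. The *irg* genes are named as infection response genes, and the *dod* genes were named as genes downstream of the insulin-regulated factor DAF-16. No p38 mutant and no infected animal was sequenced, so the dependence of the 10 genes on PMK-1 is background and was not measured.

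The implied library totals were 24523159, 26868116 and 29408147 reads in the mutants and 30183162, 30006006 and 27190567 reads in wild-type animals. Expression is given as RPKM, reads scaled to gene length and to the library total. *nhr-49* itself had 26.1, 22.1 and 26.1 RPKM in the mutants, against 39.4, 40.8 and 37.8 RPKM in wild-type animals, so the genotypes did not overlap, although reads still fell on the partly deleted gene (log2 fold change −0.65, adjusted p = 0.016 in limma, lost without mutant replicate 2 at 0.0821 and without wild-type replicates 1, 2 and 3 at 0.093, 0.0551 and 0.0832). On the second principal component of all genes, the remaining libraries lay on the opposite side from mutant replicate 1 and wild-type replicate 2. Genes were called higher or lower in the mutants at a limma p below 0.05 after Benjamini-Hochberg adjustment over all 13965 genes, with fold changes on the log2(RPKM + 1) scale, which understates the change of genes with low RPKM. Across all genes the median log2 fold change was 0.10, and 67.3% of genes had a positive one.

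Of the 10 effectors, 5 were higher in the mutants, 2 were lower and 3 were not called. Over all genes tested, 3.32% were called higher, 0.816% lower and 4.13% in either direction. The 10 were picked with earlier results of these data known, so the shares beside them are a description and no test of the set. The 5 that rose were C32H11.1, F35E12.5, T24B8.5, F08G5.6 and F55G11.8, and the 2 that fell were *dod-24* and *dod-17*. In 7 of the 10 every mutant library lay above every wild-type library, which held for 17.6% of all genes, in 2 every mutant library lay below, which held for 3.78%, and in C17H12.8 the genotypes overlapped. The median log2 fold change of the 10 was 0.84. The effectors thus did not move as a block, and the values of each are given below in the order of their fold changes. In RNA from whole animals, fewer cells of a type and less RNA per cell cannot be told apart.

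**Figure D1:**
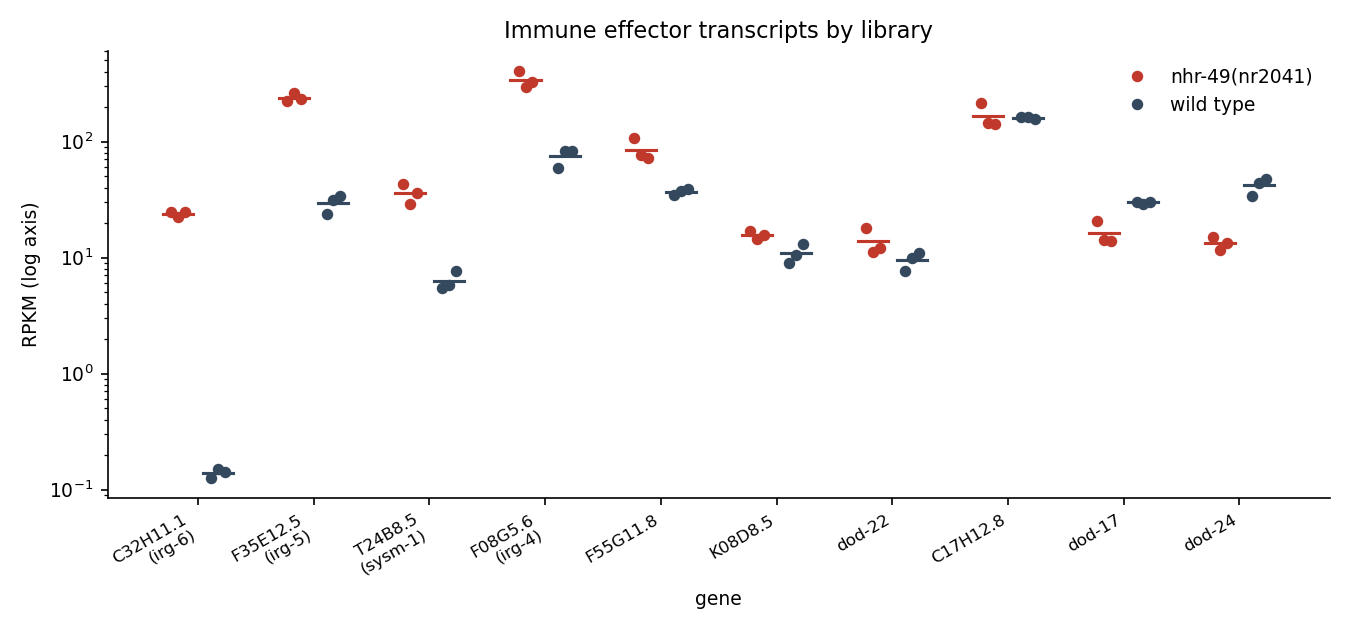
RPKM of each of the 10 effectors on a log axis, with 1 point per library and a bar at the mean of the 3 libraries of a genotype (*nhr-49(nr2041)* left, wild type right in each pair). C32H11.1 sits between 22.6 and 24.8 RPKM in the mutants and below 0.15 RPKM in wild-type animals, whereas *dod-17* and *dod-24* are the 2 genes whose mutant points all lie below the wild-type points.

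C32H11.1 (WBGene00007864, *irg-6*) encodes a CUB-like domain protein and is known as a gene induced by pathogens. It had 24.8, 22.6 and 24.5 RPKM in the mutants, against 0.127, 0.149 and 0.141 RPKM in wild-type animals. The gene was close to silent in each wild-type library and well expressed in each mutant library. In reads this was 951, 950 and 1128 in the mutants and 6, 7 and 6 in wild-type animals, so the ratio of depth-scaled reads was 172, with an interval of 110 to 287 that covers counting error only. The log2 fold change was 4.45 (95% interval 4.11 to 4.79, adjusted p = 5.82e-06), the 16th largest rise of all genes tested and the 7th smallest p. On the reads themselves, with limma voom, it was 7.32, since adding 1 RPKM lifts a wild-type level of 0.139 RPKM. The gene covers 12912722 to 12914969 of chromosome IV on the minus strand in WBcel235, with 2 transcripts.

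F35E12.5 (WBGene00009429, *irg-5*) is another CUB-like infection response gene, on chromosome V at 13737010 to 13738474 (minus strand). It had 224, 260 and 233 RPKM in the mutants, against 23.6, 31.5 and 34.2 RPKM in wild-type animals. Unlike C32H11.1 it was clearly expressed in wild-type animals, and the lowest mutant library still lay far above the highest wild-type library. The means of 239 ± 18.98 RPKM in the mutants and 29.8 ± 5.53 RPKM in wild-type animals (SD, n = 3 each) differed 8.03-fold, with a log2 fold change of 2.98 (95% interval 2.62 to 3.34, adjusted p = 3.03e-05).

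T24B8.5 (WBGene00011979, *sysm-1*), the ShK-like peptide gene on chromosome II at 9082626 to 9083193 (minus strand), has a promoter that is widely used in p38 reporter strains. It had 43.4, 28.8 and 36.1 RPKM in the mutants, against 5.48, 5.78 and 7.60 RPKM in wild-type animals. All 3 mutant libraries were above all wild-type libraries, with a wide spread among the mutants. The means of 36.1 ± 7.28 RPKM in the mutants and 6.29 ± 1.15 RPKM in wild-type animals (SD, n = 3 each) gave a ratio of 5.74 and a log2 fold change of 2.34 (95% interval 1.91 to 2.77, adjusted p = 2.86e-04).

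F08G5.6 (WBGene00008584, *irg-4*), a CUB-like infection response gene, lies on chromosome IV at 12435833 to 12438236 (plus strand). It had 405, 295 and 323 RPKM in the mutants, against 59.6, 82.4 and 83.0 RPKM in wild-type animals. The genotypes did not overlap, and mutant replicate 1 and wild-type replicate 1 were the extremes at either end. F08G5.6 was the most abundant of the 10 transcripts in the mutants, with a mean of 341 ± 57.3 RPKM, against 75.0 ± 13.3 RPKM in wild-type animals (SD, n = 3 each), and its log2 fold change was 2.17 (95% interval 1.76 to 2.58, adjusted p = 3.12e-04).

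F55G11.8 (WBGene00010128) had the smallest of the 5 rises. It had 107, 76.8 and 72.5 RPKM in the mutants, against 34.5, 37.1 and 38.8 RPKM in wild-type animals. Mutant replicate 1 was again the highest library, and the other mutant libraries lay well above the tight wild-type range. The log2 fold change was 1.17 (95% interval 0.80 to 1.54, adjusted p = 0.0052). This CUB-like gene covers 12962808 to 12964645 of chromosome IV (plus strand).

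K08D8.5, *dod-22* and C17H12.8, all CUB-like genes on chromosome IV, were not called. K08D8.5 (WBGene00010659, 12910647 to 12912129, minus strand) had 17.04, 14.45 and 15.53 RPKM in the mutants, against 8.89, 10.61 and 13.01 RPKM in wild-type animals. The libraries did not overlap, but the gap between the genotypes was smaller than the range among wild-type libraries, and the log2 fold change of 0.51 (95% interval 0.13 to 0.88) had a limma adjusted p of 0.196. *dod-22* (F55G11.5, WBGene00010125, 12965374 to 12967392, plus strand) had 17.96, 11.23 and 12.15 RPKM in the mutants, against 7.59, 9.92 and 11.04 RPKM in wild-type animals. The lowest mutant library was barely above the highest wild-type library here, and the log2 fold change of 0.48 (95% interval −0.02 to 0.97) had a limma adjusted p of 0.398.

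C17H12.8 (WBGene00015933), at 6818703 to 6820575 of chromosome IV (plus strand), was among the most abundant effectors in both genotypes. It had 213, 145 and 140 RPKM in the mutants, against 162, 164 and 155 RPKM in wild-type animals. Only mutant replicate 1 exceeded the wild-type libraries, and the other mutant libraries lay below them. The log2 fold change was 0.03 (95% interval −0.37 to 0.42, adjusted p = 0.961). Without mutant replicate 1 the log2 fold change was −0.17.

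*dod-24* (C32H11.12, WBGene00007875) fell in the mutants. This CUB-like gene, at 12940106 to 12941354 of chromosome IV (minus strand), had 15.02, 11.71 and 13.21 RPKM in the mutants, against 33.7, 44.3 and 47.5 RPKM in wild-type animals. Every mutant library lay far below the lowest wild-type library. The means of 13.3 ± 1.66 RPKM in the mutants and 41.9 ± 7.22 RPKM in wild-type animals (SD, n = 3 each) gave a log2 fold change of −1.57 (95% interval −1.95 to −1.20, adjusted p = 0.0011), and the level in wild-type animals was 3.14 times the level in the mutants.

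*dod-17* (K10D11.1, WBGene00010745), at 12976303 to 12978343 of chromosome IV (plus strand), was the other gene that fell. It had 20.6, 14.1 and 14 RPKM in the mutants, against 30.2, 29.0 and 30.4 RPKM in wild-type animals. The wild-type libraries were nearly equal, and mutant replicate 1 was the mutant library nearest to them. The log2 fold change was −0.86 (95% interval −1.24 to −0.49, adjusted p = 0.026). The call was lost when any library other than mutant replicate 1 was left out, with limma adjusted p of 0.117 and 0.0874 without mutant replicates 2 and 3, and of 0.114, 0.0532 and 0.127 without wild-type replicates 1, 2 and 3.

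**Figure D2:**
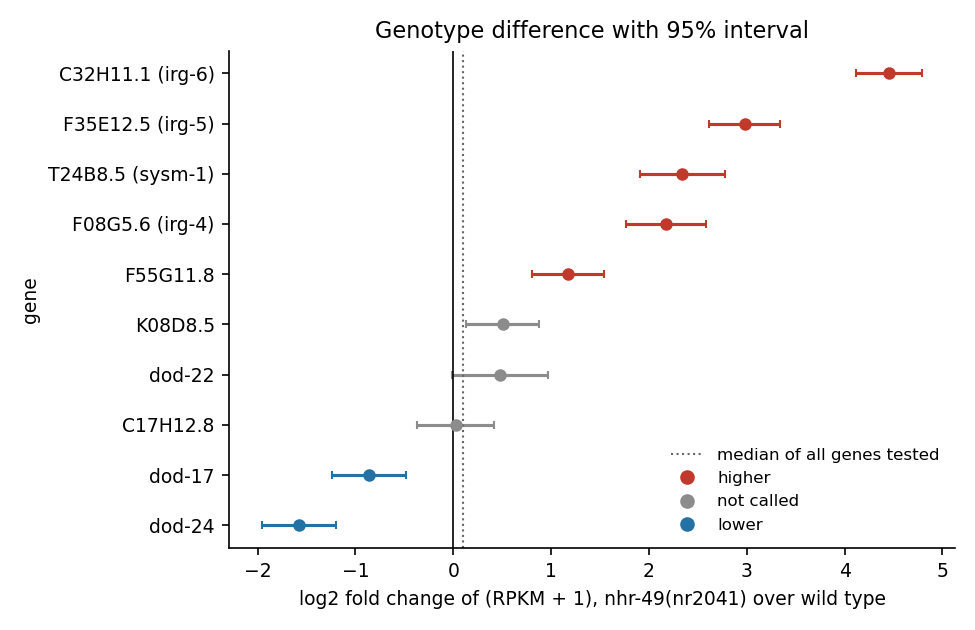
Log2 fold change of RPKM + 1 (horizontal axis, *nhr-49(nr2041)* over wild type) of the 10 effectors, with bars for the 95% interval from limma on 3 libraries per genotype and a dotted line at 0.10, the median of all genes tested. The genes run from 4.45 for C32H11.1 to −1.57 for *dod-24*, and the intervals of the 3 uncalled genes all include the dotted line or stop just short of it.

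The order of the 10 transcripts by abundance was not the same in the genotypes. In the mutants it ran F08G5.6, F35E12.5, C17H12.8, F55G11.8, T24B8.5, C32H11.1, *dod-17*, K08D8.5, *dod-22* and *dod-24*, and the libraries of neighbours in this order overlapped only from *dod-17* downwards. In wild-type animals it ran C17H12.8, F08G5.6, *dod-24*, F55G11.8, *dod-17*, F35E12.5, K08D8.5, *dod-22*, T24B8.5 and C32H11.1, with overlaps between *dod-24* and F55G11.8, *dod-17* and F35E12.5, K08D8.5 and *dod-22*, and *dod-22* and T24B8.5. *dod-24* lay below T24B8.5 and C32H11.1 in every mutant library and above both in every wild-type library.

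Summed over the 10 genes, expression was 1087, 879 and 885 RPKM in the mutants, against 366, 414 and 421 RPKM in wild-type animals. Every mutant sum was more than double every wild-type sum. F08G5.6 made up 37.3%, 33.5% and 36.5% of the sum in the mutants and 16.3%, 19.9% and 19.7% in wild-type animals. F35E12.5 made up 20.6%, 29.6% and 26.4% in the mutants and 6.44%, 7.61% and 8.13% in wild-type animals. C17H12.8, the largest component in wild-type animals at 44.3%, 39.5% and 36.8%, made up 19.6%, 16.5% and 15.9% in the mutants. The 2 genes that fell, *dod-24* and *dod-17*, together made up 3.28%, 2.94% and 3.08% of the sum in the mutants and 17.5%, 17.7% and 18.5% in wild-type animals. Most of the summed rise therefore lay in F08G5.6 and F35E12.5, and C32H11.1, with the largest fold change, was a minor part of it.

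The same libraries were often the highest or the lowest of their genotype across the effectors. Mutant replicate 1 was the highest mutant library for 9 of the 10 effectors, against 53.5% of all genes tested, and F35E12.5 was the exception. Wild-type replicate 1 was the lowest wild-type library for 8 of the 10, against 33.6% of all genes, and wild-type replicate 3 the highest for 8 of the 10, against 28.7%. Mutant replicate 1 was the highest for genes that rose and for both genes that fell. The part that the composition of the libraries had in this order was not tested.

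The intestinal part of the RNA was followed through 10 markers, since the effectors are made in that tissue. Their summed expression was 5478, 6796 and 6956 RPKM in the mutants, against 4883, 5766 and 5541 RPKM in wild-type animals, and none was at 0. The sums overlapped between genotypes, and the median log2 fold change of the markers was 0.18, against 0.10 over all genes tested. Of 10 markers, 1 was called, the transporter gene *pgp-1*, against 4.13% of all genes. A positive log2 fold change was seen in 9 of 10, against 67.3% of all genes. Most of each sum came from *asp-1*, with 3515, 4483 and 4522 RPKM in the mutants, against 2962, 3547 and 3391 RPKM in wild-type animals. A share of the marker sum is thus mainly a ratio to *asp-1*. As a share of the marker sum, the 5 risen effectors remained above wild-type animals in every mutant library and *dod-24* and *dod-17* below, while K08D8.5, *dod-22* and C17H12.8 overlapped. F35E12.5, for example, came to 4.08%, 3.83% and 3.36% of the marker sum in the mutants, against 0.483%, 0.547% and 0.617% in wild-type animals. Body wall muscle markers, with a median log2 fold change of −0.44 over 8 genes, summed to between 2497 and 3769 RPKM in the mutants and between 3952 and 4133 RPKM in wild-type animals, lowest in mutant replicate 1. Germline markers, with a median log2 fold change of −0.33 over 7 genes, summed to 253, 491 and 702 RPKM in the mutants, against 700, 399 and 646 RPKM in wild-type animals. The genotypes overlapped, and the germline sums were lowest in mutant replicate 1 and wild-type replicate 2. The part of both marker lists in the values of the effectors was not tested.

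Of the 10 genes, 8 lie on chromosome IV, 1 on II and 1 on V, and none on chromosome I, which carries *nhr-49*. K08D8.5, C32H11.1, *dod-24*, F55G11.8, *dod-22* and *dod-17* share a stretch of 67.7 kb, from 12910647 to 12978343, that holds 31 annotated genes, 22 of them protein-coding. Within it the effectors went in opposite directions. K08D8.5 and C32H11.1 lie 592 bases apart on the same strand, with log2 fold changes of 0.51 and 4.45. F55G11.8 and *dod-22* lie 728 bases apart on the same strand, with log2 fold changes of 1.17 and 0.48. *dod-24* lies 25.1 kb from C32H11.1 with 12 genes between them, and 21.5 kb from F55G11.8 with 8 genes between them, and fell while both rose. F08G5.6 lies 472 kb from the stretch.

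The other genes of the stretch were compared gene by gene. Of 14 that were tested, 4 were higher in the mutants and 0 lower, with a median log2 fold change of 0.32. Over all genes tested, 3.32% were higher and 0.816% lower, with a median of 0.10. Limma voom also called 0 lower, and C32H11.4 was the 1 gene with a negative log2 fold change at an unadjusted p below 0.05 (−0.46, adjusted p = 0.354). F55G11.7, 653 bases from F55G11.8, had 30.92, 20.97 and 22.02 RPKM in the mutants, against 0.264, 0.266 and 0.423 RPKM in wild-type animals. Like C32H11.1 it was nearly silent in wild-type libraries, and its log2 fold change was 4.26 (limma adjusted p = 1.64e-05). F55G11.6, the next gene, had 154, 187 and 200 reads in the mutants and 0 reads in each wild-type library, so its level was at least 195-fold higher in the mutants when 3 reads over the 3 wild-type libraries are taken as the floor (limma adjusted p = 2.04e-05). F55G11.6, F55G11.7, F55G11.8 and *dod-22* thus stand in a row on the plus strand, with log2 fold changes of 2.91, 4.26, 1.17 and 0.48. With limma voom on the reads these were 8.61, 6.22, 1.19 and 0.51, so F55G11.6 then stood above F55G11.7.

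Close to *dod-24* the picture was less even. C32H11.9 (*cld-1*) had 8.08, 2.72 and 2.33 RPKM in the mutants, against 0.239, 0.631 and 0.364 RPKM in wild-type animals (log2 fold change 1.78, adjusted p = 0.043). Mutant replicate 1 was well above the other mutant libraries, and the call was lost without mutant replicate 2 (adjusted p = 0.082) or without wild-type replicates 1, 2 or 3 (adjusted p = 0.152, 0.0544 and 0.158 in limma). It was also lost under quantile normalization (0.0744), with no filter (0.0671) and with equal library medians (0.0504). *dod-21*, which lies between *cld-1* and *dod-24*, had the same pattern, with 6.75, 1.96 and 1.98 RPKM in the mutants, against 0.663, 0.848 and 0.669 RPKM in wild-type animals, and was not called (limma adjusted p = 0.159). It was called when mutant replicate 1 and wild-type replicate 2 were both left out (limma adjusted p = 0.0254), a setting with more calls among all genes. The pseudogene C32H11.7 rose by 1.01 on the log2 scale (adjusted p = 0.012, but 0.0762 without wild-type replicate 3 and 0.0666 under quantile normalization). *srz-15*, directly beside C32H11.1, was too low to be tested, with 20, 19 and 16 reads in the mutants and 0 reads in each wild-type library, at least 19.8-fold higher over the same floor. Whether reads were shared between related genes of the stretch was not tested.

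**Figure D3:**
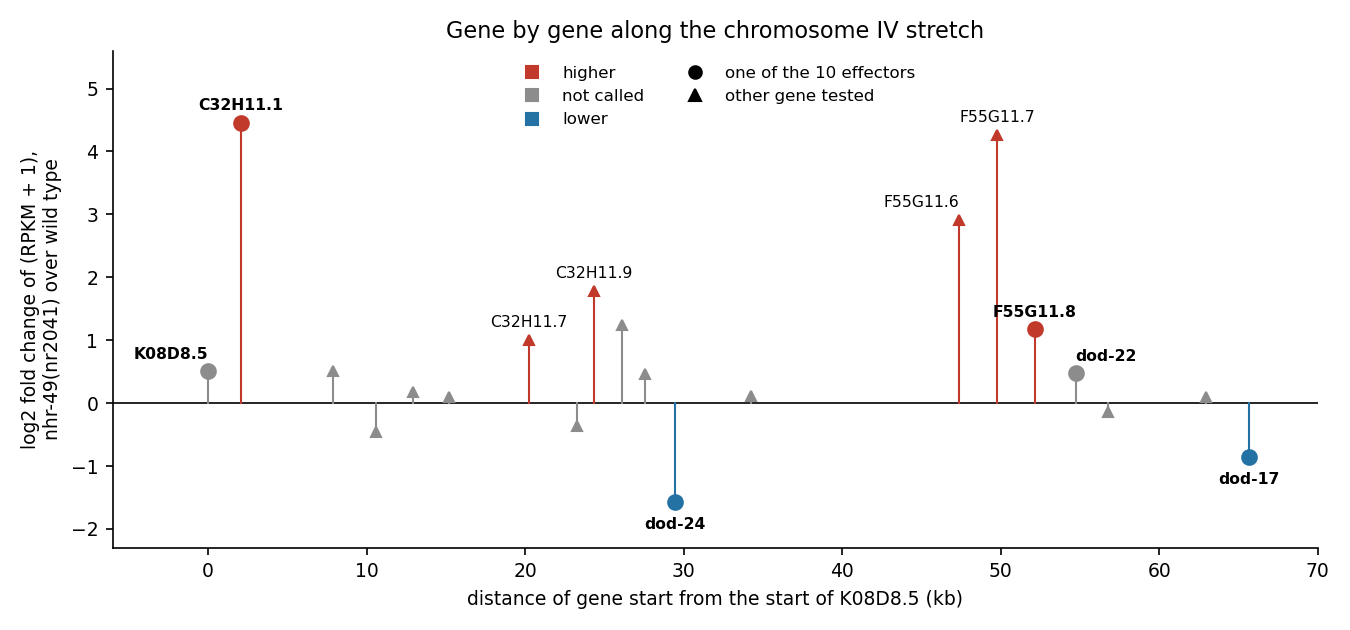
Log2 fold change of RPKM + 1 (vertical axis, *nhr-49(nr2041)* over wild type) of the 20 tested genes of the chromosome IV stretch against the distance of each gene's start from the start of K08D8.5 in kilobases. Circles are the 6 effectors and triangles other genes, and the tallest stems, C32H11.1 at 4.45 and F55G11.7 at 4.26, stand on either side of *dod-24*, which points down at −1.57.

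Within 20 kb of any of the 10 effectors, 55 other genes were tested, of which 12 were higher in the mutants and 0 lower, with a median log2 fold change of 0.30, against 3.32% called higher and a median of 0.10 over all genes. Quantile normalization left 8 of the neighbours called. In the lower direction limma voom also called 0, and 2 had an unadjusted p below 0.05. Around F35E12.5, 4 of 9 tested neighbours rose. F35E12.6, 763 bases away, had 400, 362 and 349 RPKM in the mutants, against 141, 163 and 163 RPKM in wild-type animals (log2 fold change 1.25, adjusted p = 4.70e-04). T01D3.6, 16.6 kb away, had 311, 280 and 313 RPKM in the mutants, against 43.2, 53.6 and 53.2 RPKM in wild-type animals (log2 fold change 2.57, adjusted p = 2.01e-05). Both were more abundant than F35E12.5 in every mutant library. *cld-9* averaged 72.6 ± 21.1 RPKM in the mutants and 20.3 ± 2.53 RPKM in wild-type animals (SD, n = 3 each, log2 fold change 1.76, adjusted p = 0.0021). *dct-17* had a smaller rise, with a log2 fold change of 0.89 (adjusted p = 0.014), which was lost without mutant replicate 2 (0.0609), wild-type replicate 1 (0.0758) or wild-type replicate 3 (0.0533).

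C17H12.8, which was not called, lies 490 bases from C17H12.6. C17H12.6 had 30.19, 27.42 and 22.98 RPKM in the mutants, against 5.58, 7.65 and 4.32 RPKM in wild-type animals, so it rose (log2 fold change 2.04, adjusted p = 9.43e-04) where its neighbour had 0.03. H20E11.3, 4.24 kb from C17H12.8, rose as well (log2 fold change 1.02, adjusted p = 0.0035), and these were the 2 calls among 10 tested neighbours. F08G5.6 and T24B8.5, which rose, had no called neighbour. Limma and limma voom called 0 of 10 neighbours of F08G5.6 (3 at an unadjusted p below 0.05, median log2 fold change of 0.17). They called 0 of 4 neighbours of T24B8.5 (0 at an unadjusted p below 0.05, median of 0.06). Over all genes tested each method called 4.13%, and 13.2% had an unadjusted limma p below 0.05. Among so few neighbours, 0 calls is near the share called over all genes. The remaining calls within 20 kb were K08D8.1 and K08D8.12, next to one another 17.3 and 14.3 kb from K08D8.5, with log2 fold changes of 1.27 and 1.00 (adjusted p = 0.047 and 0.028), and both calls were lost when any library other than wild-type replicate 2 was left out (adjusted p of 0.0888 to 0.173 and of 0.0692 to 0.149). In all, 12 of 14 alternatives ended the call of K08D8.1 and 9 of 14 that of K08D8.12, quantile normalization (0.0973 and 0.113) and limma voom (0.0975 and 0.0548) among them.

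**Figure D4:**
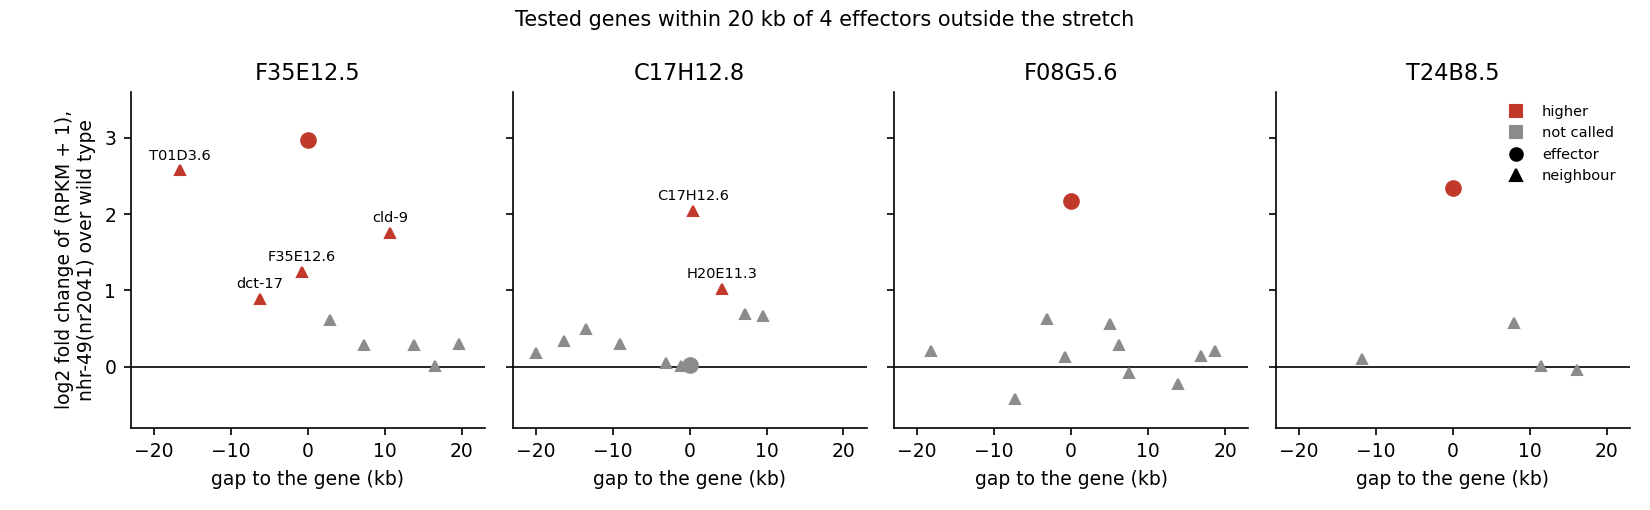
Log2 fold change of RPKM + 1 (vertical axis, *nhr-49(nr2041)* over wild type) of tested genes within 20 kb of the 4 effectors outside the stretch, against the gap to the effector in kilobases. Around F35E12.5 4 neighbours are called higher and around C17H12.8 2, with 3.32% of all genes tested called higher. F08G5.6 (2.17) and T24B8.5 (2.34) lie above their neighbours, none of which is called.

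The genes that act above these effectors were next compared. Of 14 genes of the p38 cascade and its inputs and 11 transcription regulators, limma called 0 of 25, and limma voom also 0. Each method called 4.13% of all genes tested, so 0 of 25 is near that share. Of the 25, 3 had an unadjusted limma p below 0.05 (13.2% of all genes did). Their log2 fold changes lay between −0.07 and 0.58. *tir-1*, the adaptor at the head of the cascade, had 10.8, 12.4 and 10.8 RPKM in the mutants, against 9.498, 10.4 and 9.65 RPKM in wild-type animals (log2 fold change 0.18, 95% interval −0.11 to 0.48). *nsy-1*, the kinase below it, averaged 15.98 ± 0.544 RPKM in the mutants and 16.8 ± 1.30 RPKM in wild-type animals (SD, n = 3 each), with an interval of −0.34 to 0.21 for the log2 fold change. *sek-1*, the next kinase, averaged 34.1 ± 0.439 RPKM in the mutants and 32.3 ± 1.33 RPKM in wild-type animals, with an interval of −0.15 to 0.30. Intervals of some other genes of both lists reached further, up to 1.04 for *pqm-1*. The part of these transcripts in the values of the effectors was not tested.

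*pmk-1*, the p38 kinase itself, had 24.6, 23.2 and 19.8 RPKM in the mutants, against 17.3, 19.4 and 15.7 RPKM in wild-type animals. The mutant libraries lay just above the wild-type ones, and the log2 fold change of 0.35 (95% interval 0.03 to 0.66) was not called (limma adjusted p = 0.318). *atf-7* averaged 65.5 ± 4.16 RPKM in the mutants and 57.8 ± 3.96 RPKM in wild-type animals (log2 fold change 0.18, 95% interval −0.07 to 0.42), and *elt-2* 23.4 ± 2.91 RPKM in the mutants and 19.8 ± 1.29 RPKM in wild-type animals (log2 fold change 0.23, 95% interval −0.08 to 0.53). *vhp-1*, a phosphatase that restrains p38 and JNK kinases, and *pqm-1*, a zinc finger factor of the insulin pathway, had log2 fold changes of 0.40 and 0.58 (adjusted p = 0.145 and 0.227). When mutant replicate 1 and wild-type replicate 2 were both left out, *vhp-1*, *pqm-1* and the bZIP factor gene *cebp-1* were called higher (log2 fold changes of 0.45, 0.67 and 0.53). That setting was chosen after seeing the data. It also raised the number of calls among all genes, so these calls are not particular to the cascade or its regulators. Transcript levels do not show how active a kinase was, and phosphorylation was not measured.

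**Figure D5:**
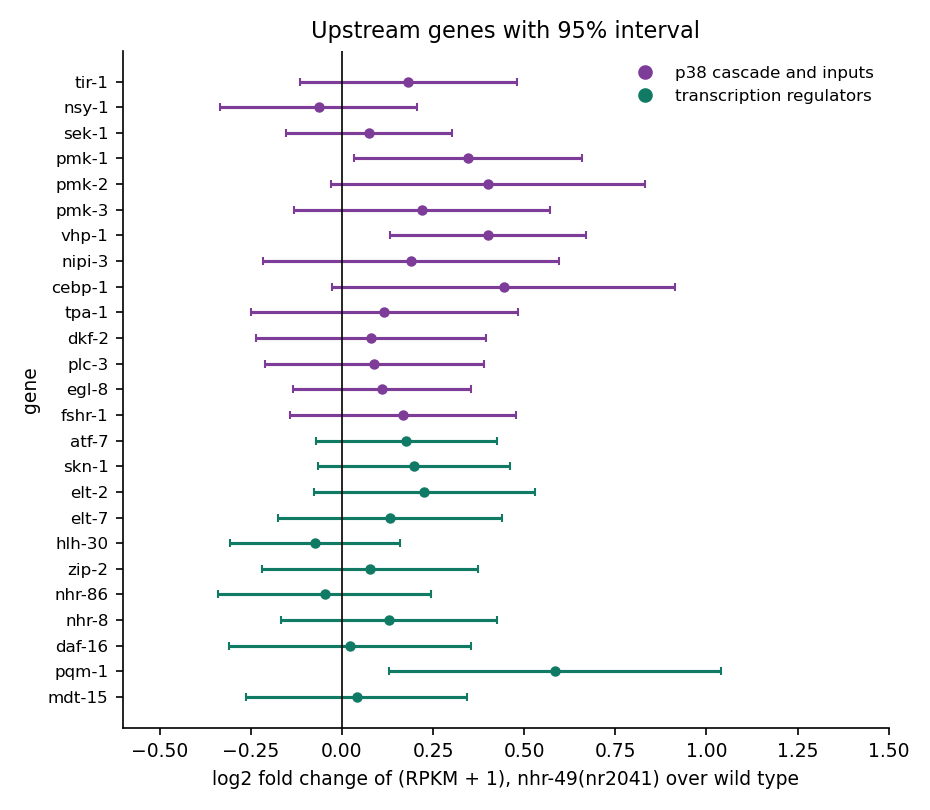
Log2 fold change of RPKM + 1 (horizontal axis, *nhr-49(nr2041)* over wild type) of 14 genes of the p38 cascade and its inputs (purple) and 11 transcription regulators (green), with bars for the 95% interval from limma on 3 libraries per genotype. All 25 points lie between −0.07 and 0.58, and none is called, against 4.13% of all genes tested.

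A few related response genes were set beside the 10, with 3.32% of all genes tested called higher as the background. Of 4 tested genes that also depend on PMK-1, 1 rose, the C-type lectin gene *clec-67*, with 52.8, 54.1 and 57.0 RPKM in the mutants, against 17.5, 23.9 and 19.1 RPKM in wild-type animals (log2 fold change 1.40, adjusted p = 7.40e-04). The lectin gene *clec-85* had a log2 fold change of 0.40 and *clec-60* of 0.42, and neither was called. *clec-85* was called when both mutant replicate 1 and wild-type replicate 2 were left out (limma adjusted p = 0.0463), a setting with more calls among all genes. Of 3 infection response genes that do not need PMK-1, 2 rose. *irg-3* averaged 67.1 ± 8.81 RPKM in the mutants and 28.8 ± 5.24 RPKM in wild-type animals (log2 fold change 1.20, adjusted p = 0.0058). *irg-1*, a target of the bZIP factor ZIP-2, had 43.1, 27.8 and 23.4 RPKM in the mutants, against 8.82, 13.3 and 12.2 RPKM in wild-type animals (log2 fold change 1.35, adjusted p = 0.022), and its call was lost without mutant replicate 2 (0.0743), wild-type replicate 1 (0.0797) or wild-type replicate 3 (0.0707). *irg-2* had a log2 fold change of −0.01. A rise was therefore found in genes of both kinds.

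Of 7 other *dod* genes, limma called 1 higher and 0 lower (0 lower also at an unadjusted p below 0.05 and by limma voom), with a median log2 fold change of 0.64. The shares over all genes were 3.32% higher and 0.816% lower, with a median of 0.10. *dod-19* had 385, 331 and 348 RPKM in the mutants, against 202, 260 and 213 RPKM in wild-type animals (log2 fold change 0.66, adjusted p = 0.032), a call that was lost when any library other than wild-type replicate 2 was left out (adjusted p of 0.0581 to 0.177) and with equal library medians (0.124). *dod-3* was called higher when both mutant replicate 1 and wild-type replicate 2 were left out (limma adjusted p = 0.0277), a setting with more calls among all genes. *dod-6* was the only one with a negative value, with a log2 fold change of −0.59 (adjusted p = 0.413). Its 3 mutant libraries had 60.5, 121 and 127 RPKM, against 143, 149 and 150 RPKM in wild-type animals, with mutant replicate 1 far below the other mutant libraries. Of all the *dod* genes compared here, *dod-24* and *dod-17* were thus the 2 called lower.

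The genes most like C32H11.1 and *dod-24* in their pattern over the 6 libraries were named by the Pearson correlation of log2(RPKM + 1), as a description in which the split between genotypes carries most of the likeness. For C32H11.1 these were *glct-4*, *glct-3*, C14C6.6, *col-176* and ZK218.3, and 134 genes in all had a correlation above 0.99. All 5 share with it the near silence in wild-type animals. *col-176* (chromosome X) averaged 219 RPKM in the mutants and 0 in wild-type animals. ZK218.3 and C14C6.6 (both on V) averaged 47.3 and 24.8 RPKM in the mutants, against 0 and 0.0207 RPKM in wild-type animals. *glct-3* and *glct-4* had 989 and 390 reads over the mutant libraries and 0 in wild-type libraries. These last genes lie on chromosome I, which carries *nhr-49*, with starts at 12387705 and 12317321, against 9869651 for *nhr-49*. The part of this position in their values was not tested. For *dod-24* they were Y25C1A.13, B0272.4, *dhrs-4*, F58F9.7 and *far-3*, and 7 genes passed 0.99. Y25C1A.13, the first of them, averaged 10.6 ± 0.821 RPKM in the mutants and 34.3 ± 4.51 RPKM in wild-type animals (SD, n = 3 each, log2 fold change −1.60, adjusted p = 3.83e-04).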

How the data were processed

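Polyadenylated RNA from whole late L4 larvae was sequenced as paired ends in 6 libraries. The authors processed reads in CLC Genomics Workbench and deposited RPKM values per gene and library, with genotype means that were not used for tests. Build WBcel235 is named in the submitters' processing notes. The sources used here do not give mapper settings or the annotation version.

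As RPKM are not counts, genotypes were compared with limma 3.58.1 (lmFit and robust, trended eBayes) in R 4.3.3 on log2(RPKM + 1), in place of the authors' Baggerly's test, keeping the 13965 genes that reached 1 RPKM in 3 or more libraries. Adjusted p-values are limma's, by the Benjamini-Hochberg method over all of these. Genotype was the only term. Whole reads could be recovered, within 0.01 reads, for 100.0% of the 19579 genes above 0, and limma voom on them called 577 genes. The main test called the same number but not the same genes, as K08D8.1 and K08D8.12 were lost with limma voom. Read intervals hold counting error alone. An exact permutation test of 3 libraries against 3 cannot go below p = 0.10, so none is given.

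Coordinates and neighbours come from Ensembl release 115, to which 96.5% of genes above 0 were matched. The 10 genes overlap no other annotated gene except that C17H12.8 holds a piRNA gene with no reads. The 10 genes and the lists were chosen with earlier results of these data known. Named genes are the 10, the called genes of each list (at most 4 by adjusted p), *nhr-49*, chosen cascade genes and the 5 genes most like C32H11.1 and *dod-24*. Other neighbours, list genes and genes of the chromosome IV stretch were named after their values were seen. Alternatives were quantile normalization, other filters (none, or 5 RPKM), pseudocounts of 0.1 and 0.5, a replicate block, each library left out in turn, voom, the study's log2 threshold of 0.5, a 50 kb window and, chosen after seeing the data, equal library medians and leaving out mutant replicate 1 and wild-type replicate 2 together. Comparisons of protein and promoter sequences were not run, as no sequences were used here.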

Additional observations from a re-analysis of the deposited data

How the results depend on the processing

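C32H11.1, F35E12.5, T24B8.5, F08G5.6, F55G11.8 and *dod-24* kept their calls under all 15 alternatives run on them, with the highest limma adjusted p at 0.034 (F55G11.8). The log2 fold change of C32H11.1 ranged from 4.11 under quantile normalization to 7.32 with limma voom. Leaving out each library in turn gave 382 to 635 calls among all genes (577 with all libraries), 5 risen effectors each time, 1 to 2 fallen effectors (2), 7 to 13 called neighbours (12) and 2 to 5 called genes of the related lists (4). C17H12.8 turned negative under quantile normalization (−0.057), with equal library medians (−0.10), without mutant replicate 1 (−0.17) and without both libraries that stood apart (−0.15), and was not called in any of these; its range with 1 library left out was −0.17 to 0.13. Replicate numbers showed no clear pairing of the libraries. The correlations of same-numbered deviations were −0.33, −0.16 and 0.34, and those of the other pairs lay between −0.44 and 0.42. Whether libraries of the same number shared a batch was not tested. A replicate block gave 396 calls among all genes, 5 risen effectors, 1 fallen effector (*dod-17* at 0.0724), 7 neighbours and 2 genes of the related lists. Among neighbours the calls of C32H11.7 (0.0647), C32H11.9 (0.104), K08D8.1 (0.0886), K08D8.12 (0.0697) and *dct-17* (0.0809) were lost. Those of *irg-1* (0.102), *dod-19* (0.136) and *nhr-49* (0.0965) were lost as well, all by limma adjusted p. Leaving out mutant replicate 1 and wild-type replicate 2 together gave 1300 calls among all genes, 20 neighbours (19 higher and 1 lower) and 10 genes of the related lists. The split of 463 higher and 114 lower genes became 400 and 154 after quantile normalization, which moved the median of all genes to −0.04 and left 8 called neighbours. The alternatives planned for related proteins were not run, for want of sequences. Of the 10 effectors C32H11.1 alone had fewer than 60 reads in any library, so depth limited its wild-type level most. T24B8.5 came next, with 60, 63 and 75 reads in wild-type animals. The causes of these changes were not tested.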
